A study of Ovis aries with 32 samples.

Results

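The genes of the mitochondrial ribosomal proteins were followed here across 4 tissues of Tan sheep, a Chinese breed of Ovis aries, and across 2 diets. All rows of the deposited expression table whose gene name was MRPL or MRPS followed by a digit were taken, which gave 66 genes of 30722 rows, 39 named MRPL and 27 named MRPS. A further 12 symbols of this kind in the RefSeq gene table of sheep had no row of that name. Sums over the family are therefore not those of the whole mitoribosome. Mitochondria carry their own ribosome, the mitoribosome, which translates the mRNAs of the mitochondrial genome into core subunits of the respiratory chain and of ATP synthase. Its ribosomal RNAs are transcribed inside the organelle, whereas all of its proteins are encoded in the nucleus, made on cytosolic ribosomes and imported, so that the mitoribosome joins products of both genomes. Some of the proteins have a counterpart in the bacterial ribosome and others are specific to mitochondria. By this grouping the 66 genes held 23 bacterial-type and 18 mitochondria-specific proteins of the large subunit, 15 bacterial-type and 9 mitochondria-specific proteins of the small subunit, and MRPS36, which despite its name is a component of the 2-oxoglutarate dehydrogenase complex in mammals.

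The trial set male sheep of 3 months of age on 2 diets, 12 sheep per diet and 24 in all. The SA sheep ate a pelleted basal ration to which succinic acid had been added at 1% of dry matter, and the CON sheep ate that ration without it, for 60 days after 10 days of adaptation. Succinic acid is an intermediate of the tricarboxylic acid cycle and the substrate of succinate dehydrogenase. Tissue of 4 sheep per diet was sequenced as stranded poly(A)-selected RNA, giving 4 SA and 4 CON libraries each of tissue labelled pituitary, tissue labelled hypothalamus, liver and tail fat, 32 in all. Comparing the diets within each tissue asks which genes of the family differed with dietary succinic acid, and comparing the tissues on the CON diet asks how the family is set in each tissue.

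Values were TPM, a length-normalised measure that gives each gene's share of the RNA of its library and keeps no record of sequencing depth. The libraries differed in features that such values carry along. Mitochondrially encoded genes took 52.5 to 71.0% of the TPM in SA livers and 20.2 to 27.9% in CON livers, 25.7 to 50.7% in SA and 22.6 to 70.8% in CON tail fat, and 68.8% in library SA 4 of the pituitary label. Other ribosomal RNAs, not encoded in mitochondria, took 1.11 to 5.98% in SA livers and 0.230 to 0.785% in CON livers. In tail fat they took 0.503 to 6.95% on SA and 0.451 to 1.44% on CON. The neighbouring genes SELENOP, of a plasma selenoprotein, and CCDC152 set some libraries apart. CCDC152 was listed at 448, 168, 645 and 842 TPM in SA livers and at 0 in every CON liver. In tail fat CCDC152 was at 0.07 TPM in SA 1 and 0.12 TPM in CON 2, with 57.8 to 186 TPM in the other 6 libraries, and SELENOP at 598 and 972 TPM in SA 1 and CON 2, with 46.0 to 197 TPM in the other 6. Summed hepatocyte markers (7 of 7 genes found, none at 0) came to 7062 to 25255 TPM in SA livers and 87540.1 to 98506 TPM in CON livers. The sum of 6 macrophage markers was 135 to 377 TPM in SA and 418 to 696 TPM in CON livers, and that of 5 endothelial markers 8.10 to 15.9 TPM in SA and 67.5 to 87.9 TPM in CON livers. Adipocyte markers (6 of 6 found) summed to 10730.5 to 60107 TPM in SA and 10967 to 74425 TPM in CON tail fat. The 9 of 10 hypothalamic hormone genes found summed to 41.7 to 55.4 TPM in SA and 35.5 to 54.7 TPM in CON libraries of the hypothalamus label, against 11.6 to 40.0 TPM in SA and 10.0 to 17.0 TPM in CON libraries of the pituitary label. Most of that sum was NPY, a neuropeptide of many brain regions, at a mean of 35.9 TPM in the 8 libraries labelled hypothalamus, while each of the other 8 averaged at most 2.79 TPM there, AVP (vasopressin) 0.41 TPM. The 5 of 8 pituitary hormone genes found summed to 2.92 to 5.90 TPM in SA and 2.85 to 4.89 TPM in CON libraries of the pituitary label, with PRL (prolactin) at a mean of 0.26 TPM and CGA at 0. The neuronal genes PPP1R1B, at 1512 TPM in the hypothalamus label, and SNAP25, at 1031 TPM in the pituitary label, were high, so these tissues are called by their labels only.

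Of the 66 genes, 63 reached 1 TPM in all 32 libraries and 51 had a mean over libraries of 10 to 50 TPM. The highest mean belonged to MRPL40, a mitochondria-specific large-subunit protein, at 105 TPM, followed by MRPL54, also specific to mitochondria, at 87.2 TPM and the small-subunit protein MRPS6 at 76.3 TPM. The lowest were MRPL27 at 0.033 TPM, MRPL32 at 6.84 TPM and MRPL17 at 6.87 TPM. MRPL27, a large-subunit protein, was listed at 0 to 0.22 TPM in every library and entered no test, which leaves 65 genes in each comparison below. TPM divides by transcript length, so these levels can be set side by side. The reserve is that MRPS6 shares its locus with SLC5A3 and that the gene of MRPL17 overlaps another gene.

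The summed level of the family was highest in SA tail fat and lowest in SA livers as deposited. It averaged 1737 ± 619 TPM in SA and 2059 ± 121 TPM in CON libraries of the pituitary label (mean ± SD, n = 4 here and below). Under the hypothalamus label the sums were 1648 ± 71.2 TPM in SA and 1691 ± 109.7 TPM in CON. The SA libraries of the pituitary label spread widely, at 1952, 2391, 1688 and 916.0 TPM, and the lowest of them, SA 4, was the library with the high mitochondrial share given above. Livers reached 1066 ± 281 TPM on SA and 1443 ± 42.3 TPM on CON, and all 4 SA livers (692 to 1372 TPM) lay below all 4 CON livers (1408 to 1503 TPM). Tail fat gave 3176 ± 275 TPM on SA and 2041 ± 603 TPM on CON, where again the groups did not overlap (2854 to 3524 TPM in SA, 1305 to 2708 TPM in CON). The liver order turned round once mitochondrially encoded genes and other ribosomal RNAs were left out and the rest rescaled to 1000000: the sum was then 3024 ± 296 TPM in SA and 1949.8 ± 117 TPM in CON livers. On that scale tail fat stood at 5893 ± 1350.2 TPM in SA and 4553 ± 644 TPM in CON, and its groups overlapped. With median-of-ratios size factors the tail fat groups did not overlap, at 3739 to 7959 in SA and 1793 to 3190 in CON. No test was run on these sums. In bulk tissue, fewer cells of a type and less RNA per cell cannot be told apart.

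**Figure D1:**
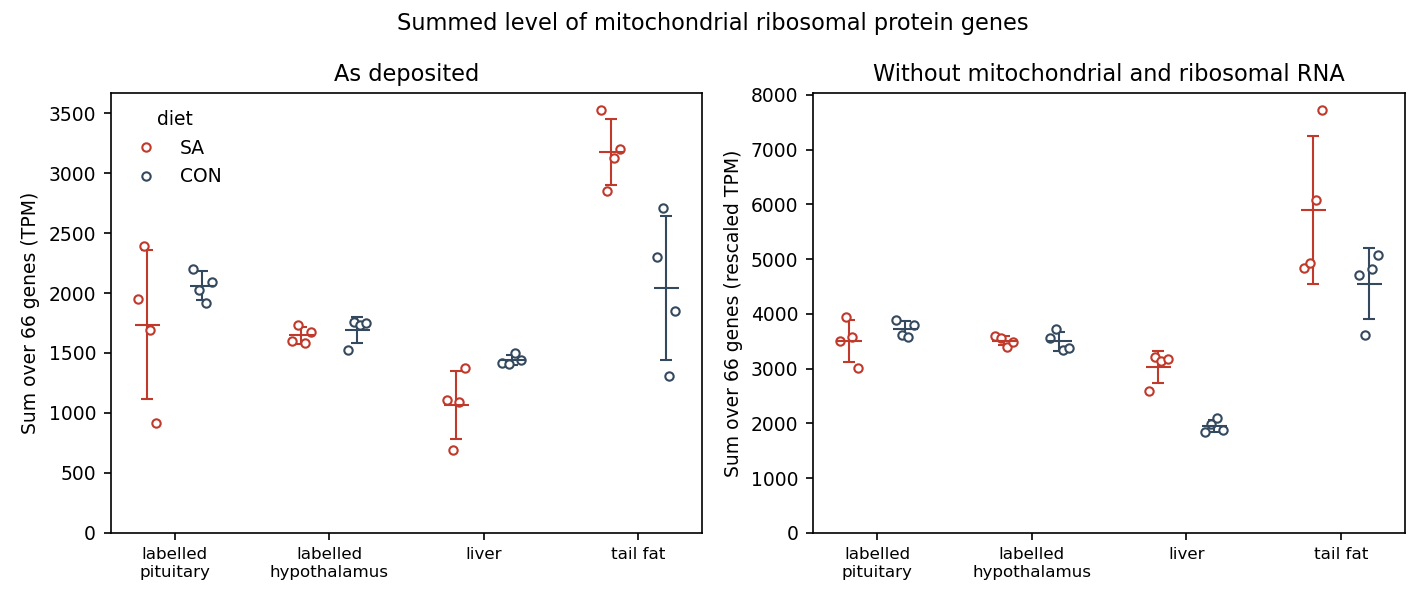
Summed TPM of the 66 genes in each of the 32 libraries (circles), with the mean (bar) and SD (whiskers) of each group of 4, as deposited (left) and after leaving out mitochondrially encoded genes and other ribosomal RNAs and rescaling the rest to the same total (right). SA livers lie below CON livers as deposited, at a mean of 1066 against 1443 TPM, and above them after rescaling, at 3024 against 1949.8 TPM.

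Most genes of the family were highest in SA tail fat or in the CON libraries of the pituitary label and lowest in SA livers. By group mean, 33 of the 65 genes with a mean of 1 TPM or more over all libraries peaked in SA tail fat, 20 in CON pituitary-labelled tissue and 6 in CON livers, while 43 were lowest in SA livers. The same counts were not taken over all genes, so they do not set the family apart. The median change of all genes between SA and CON livers was also below 0, at −0.83. The order of the 65 genes by level was nearly the same on both diets under the pituitary label and under the hypothalamus label (Spearman rho 0.98 for both, n = 65 genes), close in tail fat (0.93) and less alike in liver (0.63). SA livers ordered the genes more like CON tail fat (rho 0.74) than like the SA libraries of the hypothalamus label (0.42). These correlations run over genes of shared libraries and describe the samples only. Levels were also more uneven in liver on SA, where the 5 highest genes made up 30.0 ± 3.08% of the family's sum, against 19.2 ± 1.01% on CON. In tail fat that share was 34.7 ± 6.85% on SA and 35.8 ± 4.55% on CON.

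**Figure D2:**
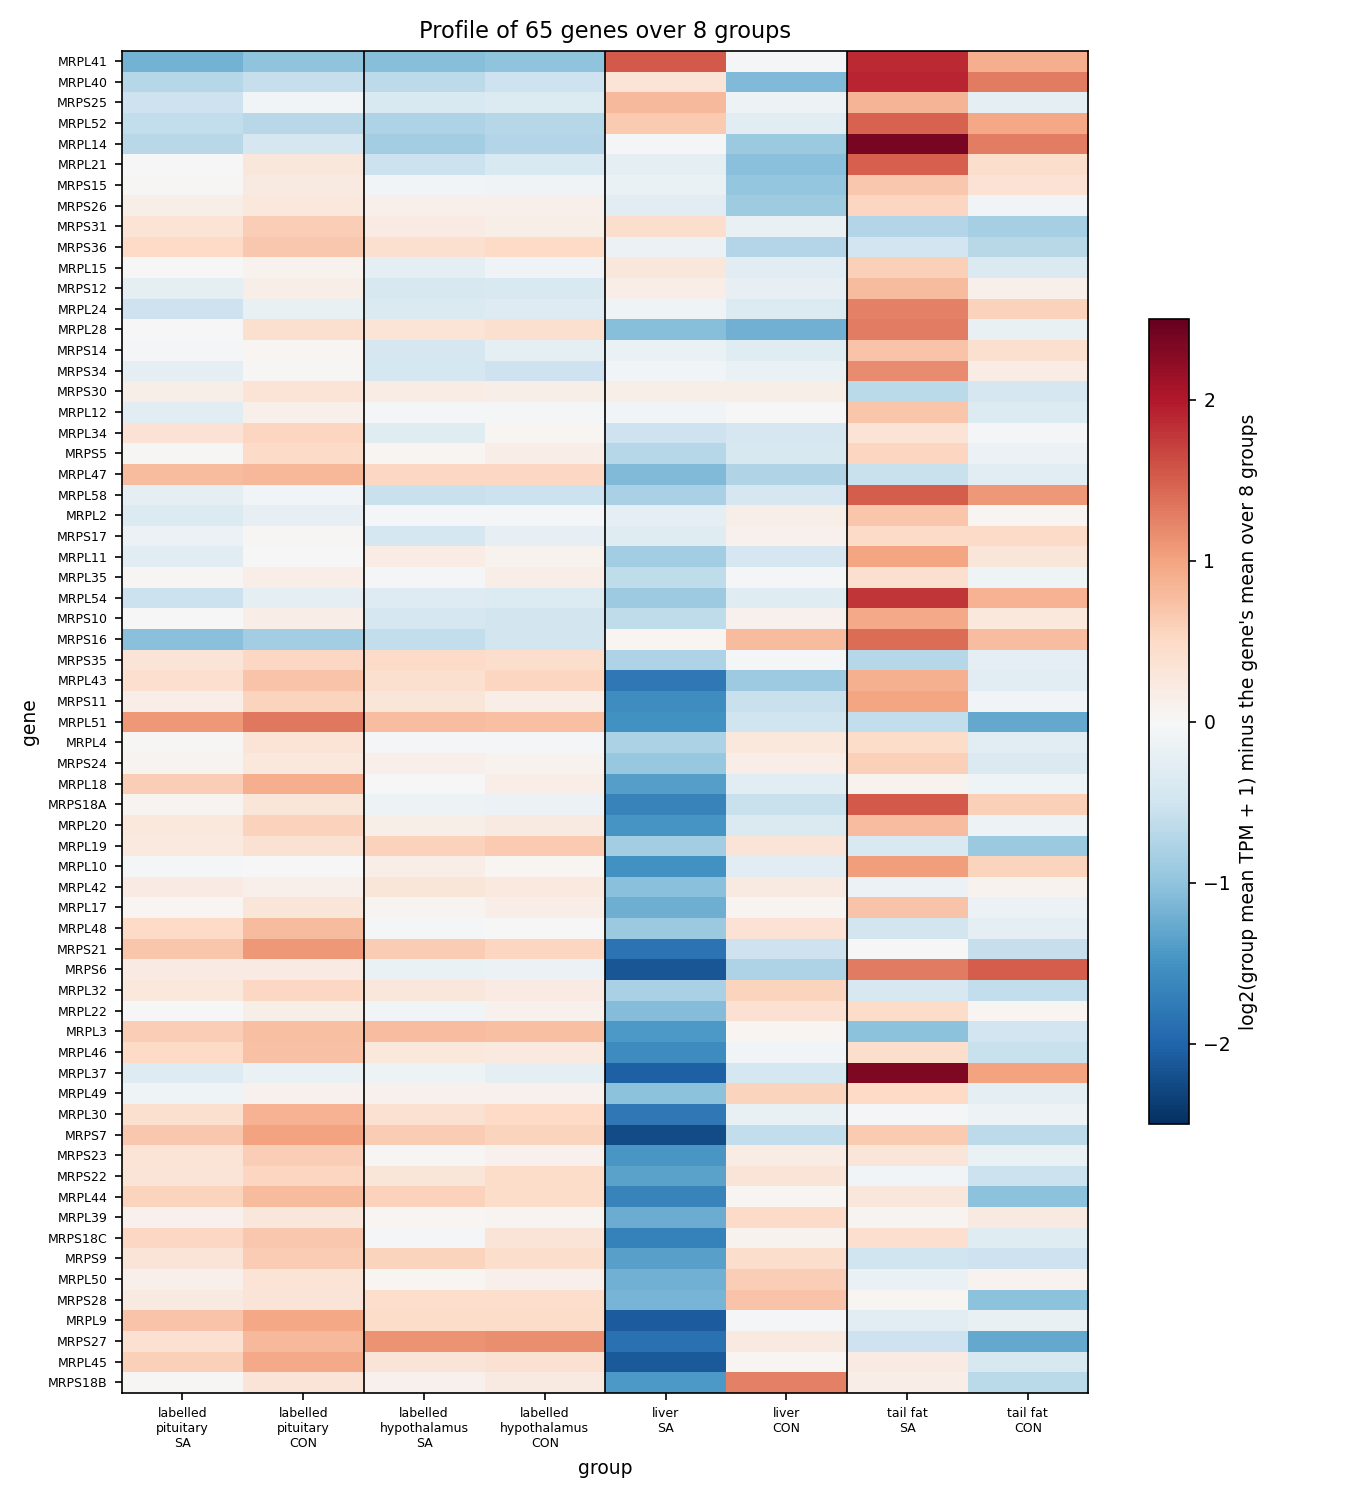
Each row is 1 of 65 genes and each column 1 of 8 groups, and the colour gives log2(group mean TPM + 1) minus the gene's mean over the 8 groups, on a range of −2.5 to 2.5, with genes sorted by their liver change. Values run from −2.23 for MRPS7 in SA livers to 2.38 for MRPL14 in SA tail fat. SA livers hold most of the dark blue cells and tail fat most of the dark red ones, all as deposited.

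The ratio of large- to small-subunit genes was highest in tail fat, where it also spread most. It covers the genes with a row: 23 of 29 listed bacterial-type and 18 of 21 mitochondria-specific genes of the large subunit. For the small subunit these were 15 of 16 and 9 of 10. Genes of the large subunit together had 1.61 ± 0.0244 times the summed TPM of the small-subunit genes in SA and 1.58 ± 0.0523 times in CON libraries of the pituitary label, and 1.64 ± 0.0517 and 1.68 ± 0.0497 times in SA and CON libraries of the hypothalamus label. In liver this ratio was 1.89 ± 0.23 on SA and 1.69 ± 0.0957 on CON, and in tail fat 2.56 ± 0.60 on SA and 2.24 ± 0.52 on CON. The mRNAs that the mitoribosome translates, the mitochondrially encoded ones, summed to 587 ± 259 times the family's sum in SA livers and 164 ± 25.5 times in CON livers. Tail fat had ratios of 122 ± 35.7 on SA and 278 ± 188 on CON. Cytosolic ribosomal protein genes had 48 rows, and their products belong to the ribosome that builds the family's proteins. These rows summed to 23.6 ± 2.56 times the family in SA and 26.0 ± 1.95 times in CON livers. In tail fat they came to 19.1 ± 3.26 times on SA and 32.6 ± 2.22 times on CON.

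In liver, most genes of the family had lower TPM on SA as deposited, and few were higher. With limma on log2(TPM + 1), 44 of the 65 genes (67.7%, against 64.3% of all genes) passed a Benjamini-Hochberg adjusted p of 0.05 over all genes tested in liver: 6 were higher (9.23%, against 5.21% of all genes) and 38 lower (58.5%, against 59.1%). The share of lower genes was thus near that of all genes. The mitochondrially encoded share and that of other ribosomal RNAs were higher in all 4 SA livers than in any CON liver, as given above. The hepatocyte, macrophage and endothelial marker sums were lower in all 4 SA livers than in any CON liver. The part of these features in the counts was not tested. The median change of the family was −1.05 and that of all 11582 genes −0.83, and 29 of the 65 genes lay above −0.83 and 36 below. All 4 SA livers were below all 4 CON livers in 37 genes (54.2% of all genes showed this) and above them in 4 (4.07% of all genes). By class, 1 of 22 tested bacterial-type large-subunit genes was higher and 12 lower, 3 of 18 mitochondria-specific large-subunit genes were higher and 12 lower, none of 15 bacterial-type small-subunit genes was higher and 9 were lower, and 2 of 9 mitochondria-specific small-subunit genes were higher and 5 lower. Changes on the log2(TPM + 1) scale understate those of low genes.

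**Figure D3:**
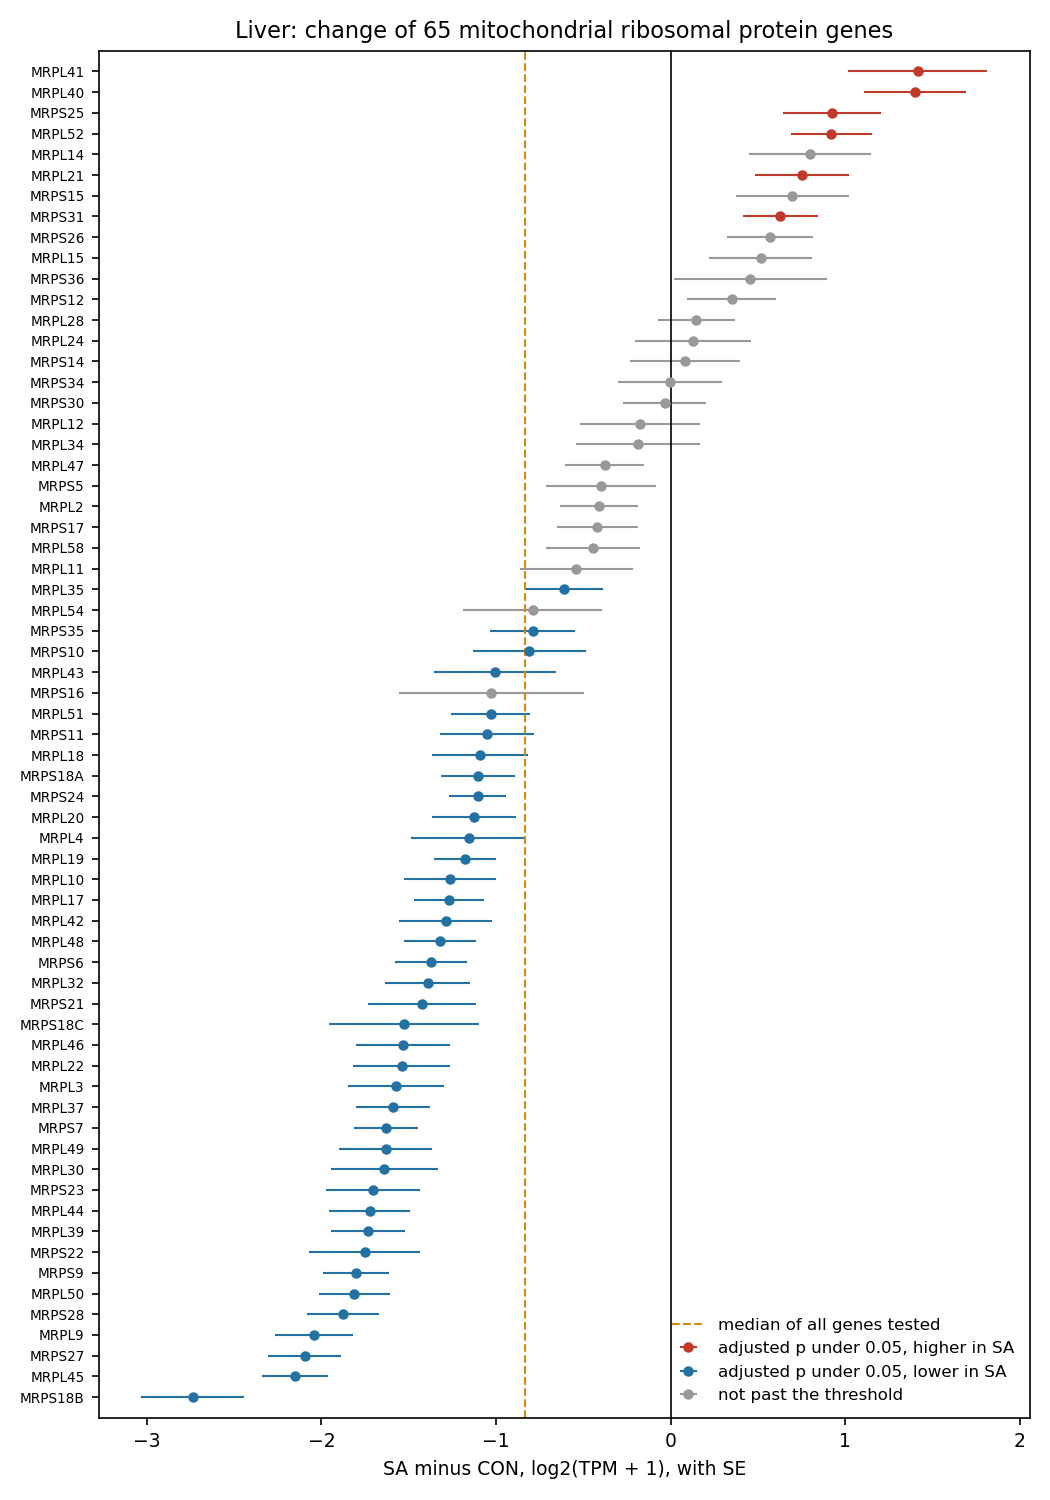
Change between SA and CON livers (SA minus CON, log2(TPM + 1), with SE, 4 libraries per diet) of the 65 genes as deposited, with the median of all genes tested as a dashed line at −0.83. Red marks 6 genes higher and blue 38 genes lower in SA at an adjusted p under 0.05, and all 6 red and 9 of the blue genes kept their call under all 4 scalings. The share of all genes that kept a call was not computed.

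The scaling set much of this count. After quantile normalization 20 genes were higher and 16 lower (16.3% and 21.1% of all genes). With mitochondrially encoded genes and ribosomal RNAs left out, 20 were higher and 10 lower (16% and 13.9%), and with median-of-ratios size factors 18 were higher and 12 lower (16.8% and 18.9%). The family's median change was −0.20, −0.08 and −0.12 under these scalings, and the median of all genes −0.09, 0.00 and −0.04. No gene was called in opposite directions under different scalings. The same 6 genes were higher under all 4 scalings and the same 9 lower under all 4. Of the 38 lower genes 35 stayed below 0 in all 4, while MRPL35, MRPS35 and MRPS10 went above 0 under at least 1. A further 11 genes, not called as deposited, were higher under each of the other 3 scalings, namely MRPL14, MRPL15, MRPL24 and MRPL28 of the large subunit, MRPS12, MRPS14, MRPS15, MRPS17, MRPS26 and MRPS34 of the small, and MRPS36. The shares of all genes with such calls under all 4 scalings, or under the other 3 only, were not computed. The counts of 6, 9 and 11 therefore do not set the family apart.

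**Figure D4:**
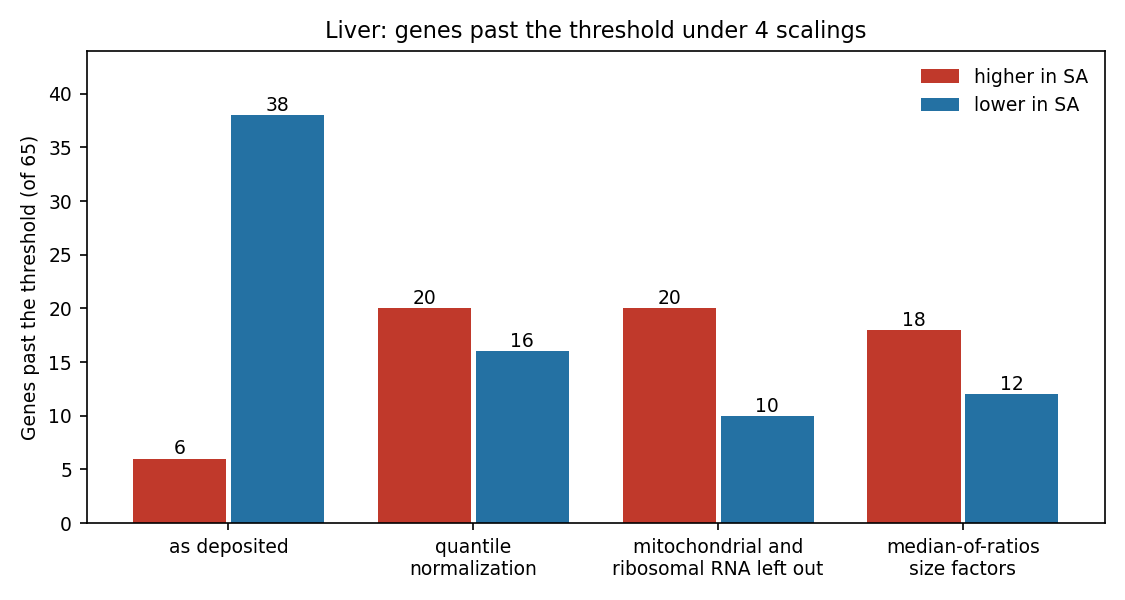
Number of the 65 genes past an adjusted p of 0.05 in SA against CON livers (limma, 4 libraries per diet) under 4 scalings of the same values, higher in SA in red and lower in blue. As deposited 6 were higher and 38 lower, and in the other 3 scalings 18 to 20 were higher and 10 to 16 lower.

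The 9 genes lower in SA livers under all 4 scalings came from both subunits, and those outside the rule for named genes were picked with their values in view. MRPS18B (ENSOARG00020022309), 1 of 3 mammalian homologs of the bacterial protein bS18 and a part of the small subunit, had 2.91, 5.04, 1.47 and 2.71 TPM in SA livers, against 24.0, 18.6, 23.6 and 34.5 TPM in CON livers. Its groups lay far apart and its change was the lowest of the family, −2.74 (SE 0.29, adjusted p = 8.24e-05), with −2.74 to −1.84 over the 4 scalings. MRPL45 (ENSOARG00020019879), which sits near the exit of the peptide tunnel and contacts the inner membrane, had 3.97, 3.18, 3.75 and 5.21 TPM in SA livers, against 23.4, 19.9, 19.2 and 22.2 TPM in CON livers. No SA liver came near the CON livers, and the change was −2.15 (SE 0.19, adjusted p = 3.87e-05). MRPS27, a small-subunit protein with pentatricopeptide repeats, had 2.30, 1.41, 2.00 and 2.78 TPM in SA livers, against 12.8, 9.60, 11.3 and 15.7 TPM in CON livers, without overlap and with a change of −2.10 (adjusted p = 6.49e-05). The large-subunit protein MRPL9, whose gene overlaps OAZ3, had 3.62, 4.89, 3.20 and 4.90 TPM in SA livers, against 28.0, 19.6, 15.9 and 18.2 TPM in CON livers, again without overlap, and changed by −2.04 (adjusted p = 9.03e-05). MRPS28, the counterpart of bacterial bS1, had 8.89, 5.76, 6.34 and 7.56 TPM in SA livers, against 25.8, 28.6, 35.2 and 25.6 TPM in CON livers. Every SA liver was lower, with a change of −1.88 (adjusted p = 9.08e-05).

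The other 4 of these 9 were mitochondria-specific proteins of the large subunit. MRPL50 had 13.9, 10.7, 12.6 and 11.3 TPM in SA livers, against 36.9, 43.9, 51.3 and 48.9 TPM in CON livers, a change of −1.81 (adjusted p = 9.59e-05). For MRPL39 the values were 12.3, 8.03, 12.4 and 9.95 TPM in SA livers, against 43.0, 36.3, 38.1 and 32.5 TPM in CON livers, a change of −1.73 (adjusted p = 0.000139). MRPL44, which carries a fold related to ribonuclease III, had 3.63, 2.51, 5.02 and 4.72 TPM in SA livers, against 14.1, 11.7, 19.4 and 16 TPM in CON livers, and MRPL37 had 3.61, 2.24, 3.27 and 4.37 TPM in SA livers, against 14.0, 9.65, 10.8 and 14.0 TPM in CON livers. In all 4 genes each SA liver was below each CON liver, and MRPL44 changed by −1.72 (adjusted p = 0.000222) and MRPL37 by −1.59 (adjusted p = 0.000210). By the way they were chosen, none of the 9 could be higher in SA livers under any of the 4 scalings.

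The 6 genes higher in SA livers under all 4 scalings were 4 of the large and 2 of the small subunit. The genes of MRPL41, MRPL52, MRPS25 and MRPS31 each overlap another gene, so their levels are less certain. MRPL40 (ENSOARG00020005950), the highest gene of the family, had 102, 70.6, 79.4 and 152 TPM in SA livers, against 33.5, 33.9, 45.5 and 32.4 TPM in CON livers, and the groups did not overlap (change 1.40, SE 0.29, adjusted p = 0.00227). MRPL41 (ENSOARG00020038479), a mitochondria-specific protein whose gene overlaps PNPLA7, had 66.7, 19.9, 51.4 and 79.6 TPM in SA livers, against 22.0, 18.4, 15.4 and 15.0 TPM in CON livers. Its SA 2 liver fell among the CON livers, and the change was 1.42 (SE 0.40, adjusted p = 0.0110). MRPS25, a mitochondria-specific protein of the small subunit, had 47.0, 74.7, 37.6 and 52.5 TPM in SA livers, against 30.2, 25.2, 33.6 and 19.3 TPM in CON livers, all SA livers being higher (change 0.93, adjusted p = 0.0155). MRPL52, specific to the mitochondrial large subunit, had 20.2, 11.8, 15.6 and 21.1 TPM in SA livers, against 8.57, 10.5, 7.25 and 7.55 TPM in CON livers, also without overlap, and changed by 0.92 (adjusted p = 0.00612). MRPS31, of the small subunit, had 25.9, 28.2, 29.0 and 21.8 TPM in SA livers, against 17.8, 16.3, 20.2 and 12.7 TPM in CON livers and changed by 0.63 (adjusted p = 0.0264). MRPL21, the family's bacterial-type protein in this set, had 24.7, 16.7, 31.7 and 35.3 TPM in SA livers, against 12.5, 13.2, 17.4 and 18.0 TPM in CON livers, with SA 2 between the CON values and a change of 0.75 (adjusted p = 0.0323). Leaving out 1 liver library ended the call of MRPL21 and MRPS31, with adjusted p up to 0.0876 and 0.0849, and that of MRPS25 without CON 4 (0.0522).

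**Figure D5:**
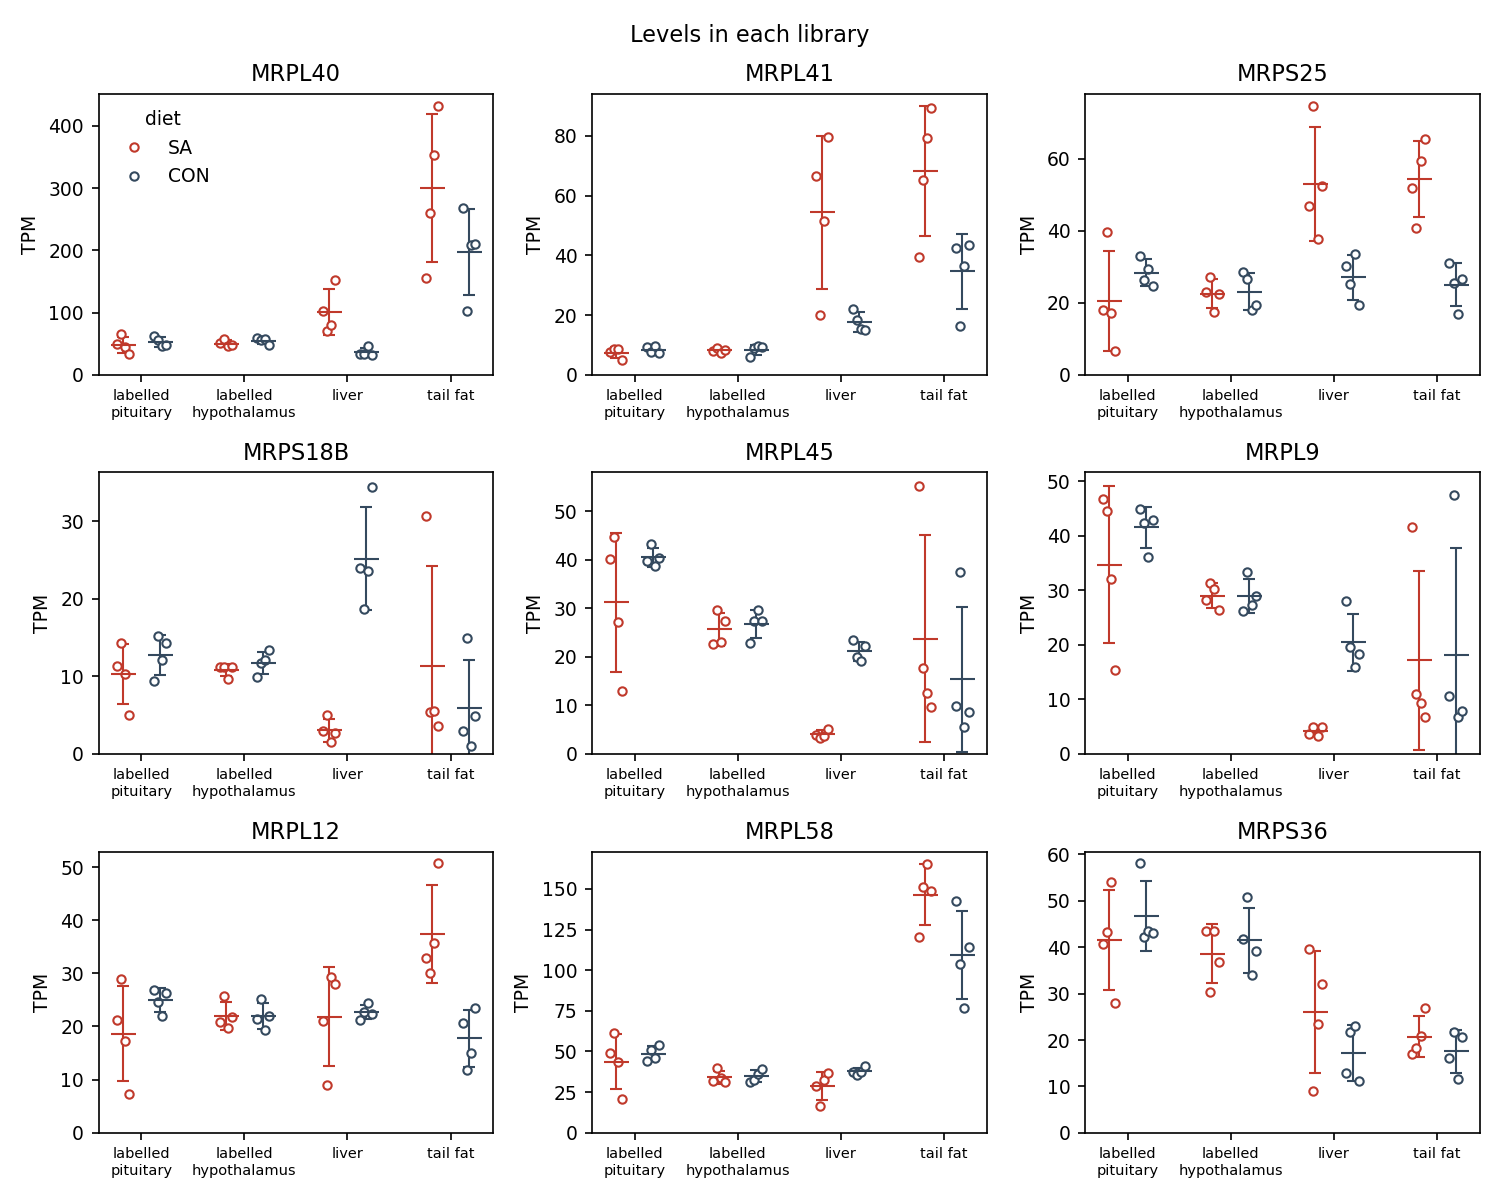
TPM in each library (circles) with mean and SD of each group of 4 for 9 genes: 3 higher (top) and 3 lower (middle) in SA livers under all 4 scalings, and MRPL12, MRPL58 and MRPS36 (bottom), which were not past the threshold in liver as deposited but were higher past it in at least 1 other scaling. Axes start at 0. In tail fat, MRPS18B, MRPL45 and MRPL9 are high in the SA 1 and CON 2 libraries and low in the other 6.

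Genes of known ribosomal centres, listed by role, showed both called and uncalled changes in liver. MRPL12, the stalk protein that also binds the mitochondrial RNA polymerase, had 21.0, 8.92, 29.4 and 28.1 TPM in SA livers, against 21.2, 22.7, 24.4 and 22.3 TPM in CON livers, with the SA livers on both sides of the CON range. The change was −0.17 (adjusted p = 0.671) as deposited, and 0.75, 0.90 and 0.81 after quantile normalization, without mitochondrial and ribosomal RNA, and with size factors. Of the stalk base and factor-binding site, MRPL10 had 5.70, 4.40, 6.04 and 10.4 TPM in SA livers, against 21.7, 17.5, 12.9 and 15.4 TPM in CON livers and was lower (−1.26, adjusted p = 0.00241), staying below 0 in all 4 scalings. MRPL11 changed by −0.54 (adjusted p = 0.168) as deposited and by 0.37, 0.51 and 0.44 in those 3 scalings. Near the peptidyl transferase centre, MRPL3 had 3.33, 2.06, 5.09 and 6.46 TPM in SA livers, against 15.3, 14.9, 13.2 and 11.7 TPM in CON livers and was lower (−1.57, adjusted p = 0.000883), also below 0 in all 4. MRPL2 changed by −0.41 (adjusted p = 0.134) and by 0.58, 0.67 and 0.59 in the other scalings. MRPL58, a peptidyl-tRNA hydrolase that frees stalled ribosomes, changed by −0.44 (adjusted p = 0.168) and by 0.53, 0.64 and 0.56. Values of MRPL11, MRPL2 and MRPL58 thus lay below 0 as deposited and above 0 in the other scalings, without a call as deposited. After quantile normalization MRPL2 and MRPL58 passed as higher (adjusted p = 0.0471 and 0.0384). Without mitochondrial and ribosomal RNA MRPL58 and MRPL12 did (0.0274 and 0.0218).

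In the small subunit, MRPS12 of the decoding centre, whose gene overlaps SARS2, changed by 0.35 (adjusted p = 0.251) as deposited. MRPS7, which contacts the head of the small-subunit RNA and whose gene overlaps MIF4GD, had 2.57, 3.60, 3.48 and 4.33 TPM in SA livers, against 13.5, 11.0, 12.5 and 14.3 TPM in CON livers, a clear separation with a change of −1.63 (adjusted p = 0.000101). MRPS22, specific to the mitochondrial small subunit, changed by −1.75 (adjusted p = 0.00106) as deposited. The bacterial-type MRPS9 changed by −1.80 (adjusted p = 7.89e-05) and MRPS5 by −0.40 (adjusted p = 0.290). MRPS22 and MRPS9 passed as deposited and stayed below 0 in all 4 scalings. Without mitochondrial and ribosomal RNA neither passed (adjusted p = 0.0537 and 0.0593), and MRPS22 also missed the threshold with size factors (0.0529). The other bS18 homologs were also lower as deposited and below 0 in all 4 scalings: MRPS18A, which sits in the large subunit, by −1.10 (adjusted p = 0.00142) and MRPS18C, in the small subunit, by −1.53 (adjusted p = 0.0114), where the genes overlap RSPH9 and ABRAXAS1. MRPL10, MRPS18A and MRPS18C did not pass in the other 3 scalings. MRPS30, also placed in the large subunit, had 9.55, 20.1, 16 and 14.9 TPM in SA livers, against 14.8, 15.1, 16.8 and 13.7 TPM in CON livers and a change of −0.03 (adjusted p = 0.905), and 0.93, 1.04 and 0.94 in the other scalings. MRPS34, a mitochondria-specific small-subunit protein, changed by −0.0036 (adjusted p = 0.992) as deposited, and by 0.91, 1.07 and 0.97. MRPS36, the component of 2-oxoglutarate dehydrogenase, had 39.6, 8.93, 23.5 and 32.2 TPM in SA livers, against 12.9, 21.8, 23.0 and 11.1 TPM in CON livers, with broad overlap and a change of 0.46 (adjusted p = 0.382). In the other scalings MRPS36 changed by 1.34, 1.54 and 1.44 and MRPS12 by 1.29, 1.44 and 1.34. MRPS12, MRPS34 and MRPS36 passed as higher in each of those 3 scalings, and MRPS30 after quantile normalization and with size factors.

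About as often as all genes lower in SA livers, those of the family split the tail fat libraries across diets. The tail fat libraries SA 1 and CON 2, which stood apart by CCDC152 and SELENOP, were the 2 highest of 8 in 20 of the 38 genes lower in liver (52.6%, against 51.7% of all genes lower in liver and tested in tail fat), in none of the 6 higher in liver (0.61% of all such genes) and in 1 of the 21 uncalled (4.76%, against 14.2%). The other 18 of the 38 did not show this split. Over all 65 genes this was 21 (32.3%), against 33.7% of the 11185 genes tested in tail fat. MRPL9 had 41.5 TPM in the SA 1 library and 47.5 TPM in the CON 2 library, with 6.67 to 10.9 TPM in the other 6. MRPL45 had 55.3 TPM in the SA 1 library and 37.5 TPM in the CON 2 library, with 5.50 to 17.6 TPM in the other 6, and MRPS18B 30.7 TPM in the SA 1 library and 14.9 TPM in the CON 2 library, with 0.95 to 5.54 TPM in the other 6. The same held for 7 of the 9 genes lower in liver under all 4 scalings, the exceptions being MRPL37 and MRPL44. The share among all genes lower under all 4 scalings was not computed. Among the 6 genes higher in liver, MRPL40 alone had SA 1 and CON 2 as its 2 lowest tail fat libraries. Of all genes higher in liver and tested in tail fat, this held for 100 of 492. MRPL40 had 156 TPM in the SA 1 library and 102 TPM in the CON 2 library, with 208 to 432 TPM in the other 6. CCDC152 was high in the 4 SA livers and in 6 tail fat libraries. The 20 genes were counted because they were lower in SA livers and highest in tail fat SA 1 and CON 2. Their low levels in the SA livers and in the other 6 tail fat libraries follow from that choice. The part of this library feature in the liver result was not tested.

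In tail fat no gene of the family passed the threshold for diet, although most of its changes lay above 0 in each of the 4 scalings. Limma called 0 of 65 genes (0.697% of all genes were called, 0.277% higher and 0.42% lower), with 15 at an unadjusted p under 0.05 (23.1%, against 14.3% of all genes). Changes were above 0 in 57 genes, with a median of 0.69 against −0.06 over all genes. In the other scalings 47 to 60 genes were above 0 and the family's medians were 0.48 after quantile normalization, 0.38 without mitochondrial and ribosomal RNA and 0.85 with size factors, where those of all genes were 0.01, −0.36 and 0.07. The lowest p of the positive side belonged to MRPL28, a bacterial-type large-subunit protein, with 124, 48.3, 66 and 79.5 TPM in SA and 30.2, 45.2, 14.0 and 22.3 TPM in CON tail fat. Its groups did not overlap, and the change was 1.51 (SE 0.48, adjusted p = 0.165). MRPL44 had 29.1, 17.3, 15.4 and 11.2 TPM in SA and 4.87, 11.3, 3.38 and 7.40 TPM in CON tail fat, where CON 2 lay just above the lowest SA library, SA 4, so that the groups overlapped (change 1.35, adjusted p = 0.224). MRPL43, specific to the mitochondrial large subunit, had 36.5, 24.3, 22.8 and 19.1 TPM in SA and 11.1, 14.1, 7.51 and 11.1 TPM in CON tail fat (change 1.15, adjusted p = 0.251). On the negative side MRPL3 changed by −0.32, the small-subunit protein MRPS35 by −0.30 and MRPL47 by −0.23, with adjusted p of 0.812, 0.819 and 0.843. The count of higher genes was 3 after quantile normalization (4.62%, against 1.66% of all genes), 2 without mitochondrial and ribosomal RNA (3.08%, against 1.46%) and 9 with size factors (13.8%, against 4.99%). It was 18 in a fit of all tissues together (27.7%, against 7.79%), 28 with weights per library (43.1%, against 13.1%) and 2 without SA 1 and CON 2 (3.08%, against 2.21%). No gene of the family was lower under any of these 6 settings, where 2.05%, 8.81%, 3.12%, 10.7%, 12.3% and 1.15% of all genes were, in the same order.

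Among the named panel, the stalk protein MRPL12 had 32.9, 30.1, 35.8 and 50.8 TPM in SA and 20.6, 11.8, 15.1 and 23.6 TPM in CON tail fat. All SA libraries were above all CON libraries, with a change of 1.05 (adjusted p = 0.295). MRPL58 had 120.5, 151, 166 and 148 TPM in SA and 142, 104, 77.0 and 114 TPM in CON tail fat, with CON 1 inside the SA range and a change of 0.44 (adjusted p = 0.649). MRPL40 reached 156, 259.6, 354 and 432 TPM in SA and 267, 102, 208 and 209.8 TPM in CON tail fat, overlapping, with a change of 0.59 (adjusted p = 0.579).

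Under the hypothalamus label no gene of the family passed for diet. Limma called 0 of 65 genes, as it called 0% of all genes, and 1 gene had an unadjusted p under 0.05 (3.49% of all genes). That gene was MRPL34, a bacterial-type large-subunit protein, with 19.6, 22.6, 18.7 and 20.6 TPM in SA and 24.1, 24.6, 25.6 and 30.4 TPM in CON libraries, a change of −0.34 (SE 0.10, adjusted p = 0.947). The median change was −0.02, against 0.02 over all genes, and the 65 changes ran from −0.44 to 0.12. Next in p on the negative side were MRPS17 at −0.24 and MRPL22 at −0.18, and on the positive side MRPL37 at 0.12, MRPL10 at 0.11 and MRPS9 at 0.12, none past the threshold. Each of the other settings run also called 0 genes of the family.

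Under the pituitary label limma again called 0 of 65 genes and 0% of all genes, with none at an unadjusted p under 0.05 (1.51% of all genes). Changes were below 0 in 63 genes, with a median of −0.29, near the −0.27 over all genes. MRPS25 had 18.1, 39.7, 17.2 and 6.54 TPM in SA and 33.0, 26.4, 29.5 and 24.7 TPM in CON libraries, a change of −0.69 (SE 0.41, adjusted p = 0.747). The SA 4 library was the lowest of the 8 there, and SA 2 the highest. MRPS5 changed by −0.58 and MRPL30 by −0.51. MRPL52 and MRPL42, at 0.06 and 0.04, were the 2 genes above 0, and both went below 0 when single SA libraries were left out. Without SA 4 the count of called genes was also 0.

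Whether the diet difference itself varied between tissues was tested with the limma F-test of the interaction. It passed for 37 of the 65 genes (27% of all genes), led by MRPL44 with an adjusted p of 0.000189, MRPL46, a large-subunit protein specific to mitochondria, with 0.000273 and MRPL37 with 0.000701. MRPL44 changed by −0.37 under the pituitary label, 0.10 under the hypothalamus label, −1.72 in liver and 1.35 in tail fat. For MRPL46 the changes were −0.28, 0.01, −1.53 and 1.02, and for MRPL37 −0.25, 0.12, −1.59 and 1.43, in that order of tissues. With liver left out the same test passed for 0 of 65 genes (1.32% of all genes). The tissues came from 4 sheep per diet and the labels do not tie libraries of different tissues to 1 animal, so this test treats them as separate.

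On the CON diet no gene of the family passed between the brain labels. Pituitary-labelled against hypothalamus-labelled libraries gave 0 called genes of 65 (13.1% of all genes, 8.63% higher and 4.48% lower), 4 at an unadjusted p under 0.05 (22.6% of all genes), and a median difference of 0.19 beside 0.21 over all genes. MRPL21 had 43.5, 36.2, 40.0 and 39.1 TPM under the pituitary label and 20.7, 27.6, 28.7 and 22.3 TPM under the hypothalamus label. The groups did not overlap, but the difference of 0.67 (adjusted p = 0.0862) missed the threshold. MRPL48, specific to the mitochondrial large subunit, differed by 0.78 (adjusted p = 0.125) and MRPL58 by 0.48 (adjusted p = 0.194). On the negative side were MRPS27 at −0.34, MRPL19 at −0.29 and MRPS16 at −0.35, none past the threshold. After quantile normalization 3 genes were higher and 1 lower (8.41% and 8.19% of all genes), without mitochondrial and ribosomal RNA 1 was higher and none lower (7.5% and 6.44%), and with size factors none was higher and 1 lower (6.4% and 7.16%). Without tail fat CON 2, which enters through the shared estimate of spread, 6 were higher (14.4% of all genes).

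CON livers and CON tail fat differed in both directions. Of 65 genes 12 were higher in liver (23.3% of all genes) and 16 lower (20.8%), and the median difference was 0.16. After quantile normalization 15 were higher and 25 lower (24.8% and 32.2% of all genes). Without mitochondrial and ribosomal RNA 6 were higher and 35 lower (17.6% and 41.8%), and with size factors 20 and 18 (29.4% and 27.8%). MRPL40 had 33.5, 33.9, 45.5 and 32.4 TPM in liver and 267, 102, 208 and 209.8 TPM in tail fat, a difference of −2.34 (adjusted p = 1.21e-06) without overlap. MRPL14, a bacterial-type protein at the subunit interface, differed by −2.15 (adjusted p = 2.19e-06) and the rescue factor MRPL58 by −1.47 (adjusted p = 2.27e-05). Higher in liver were MRPS18B at 2.31 (adjusted p = 0.000278), MRPS28 at 2.13 (adjusted p = 0.000265) and MRPS27 at 1.68 (adjusted p = 0.000309). For MRPS18B the CON tail fat values were 2.93, 14.9, 0.95 and 4.83 TPM, of which CON 2 came nearest to liver. In CON 2, MRPS28 was at 21.2 TPM and MRPS27 at 8.38 TPM. All 3 genes were highest in SA 1 and CON 2 of the tail fat libraries. CCDC152 was at 0 TPM in every CON liver, 0.12 TPM in CON 2 and 57.8 to 162 TPM in the other CON tail fat libraries. The part of this library feature in the tissue difference was not tested. In the 16 SA libraries MRPS18B, MRPS28 and MRPS27 turned round, at −1.20, −0.91 and −0.96. The number of higher genes was 26 without tail fat CON 2 (36.7% of all genes).

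The brain labels together differed from liver and tail fat on the CON diet in a way that followed the scaling. As deposited, 36 of 65 genes passed (79.1% of all genes), of which 28 were higher in brain-labelled tissue (61.8% of all genes) and 8 lower (17.4%), with a median difference of 0.39 where that of all genes was 0.85. After quantile normalization 6 were higher and 39 lower (36.6% and 41% of all genes), and with size factors 5 and 44 (40.7% and 36.2%), while without mitochondrial and ribosomal RNA they were 37 and 6 (67.5% and 16.8%). The genes named here kept their sign in all 4 scalings. MRPL51, specific to the mitochondrial large subunit, had 38.9, 35.1, 35.9 and 39.8 TPM under the pituitary label and 22.7, 29.7, 23.9 and 23.8 TPM under the hypothalamus label. Its levels were 8.15, 9.35, 12.1 and 9.96 TPM in liver and 4.03, 9.66, 2.23 and 5.42 TPM in tail fat, and the difference was 2.00 (adjusted p = 5.70e-08). MRPL43 differed by 1.23 and MRPL47, the counterpart of bacterial uL29, by 1.21. MRPS27 at 1.61, MRPS7 at 1.50 and MRPS36 at 1.33, picked with their values in view, were also among those higher. Lower in the brain labels were MRPS16, a bacterial-type small-subunit protein, at −1.51 (adjusted p = 6.63e-05), MRPL41 at −1.41 (adjusted p = 4.02e-06) and MRPL52 at −0.98 (adjusted p = 0.000150).

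Other genes of mitochondrial translation, outside the name rule, were set beside the family in liver. Of 5 mitoribosome proteins with other names, 1 was higher and 2 lower: PTCD3, a small-subunit protein, had 4.18, 4.21, 2.91 and 3.28 TPM in SA livers, against 15.7, 13.2, 15.4 and 19.0 TPM in CON livers (−1.86, adjusted p = 6.68e-05), DAP3, a GTP-binding protein of the small subunit, had 6.40, 6.00, 4.92 and 5.88 TPM in SA livers, against 21.6, 17.6, 21.1 and 24.3 TPM in CON livers (−1.70, adjusted p = 8.24e-05), and GADD45GIP1 of the large subunit was higher at 0.66 (adjusted p = 0.0491). Translation factors had 1 higher and 7 lower of 14, with the elongation factors GFM1 at −1.98 and TSFM at −1.83. Mitochondrial aminoacyl-tRNA synthetases, which charge the tRNAs, had none higher and 10 lower of 18, with SARS2 at −1.57 and NARS2 at −1.54. Factors of mitoribosome assembly had none higher and 14 lower of 22, with MTERF4 at −1.89 and the rRNA methyltransferase TFB1M at −1.51. Of 13 genes of mitochondrial transcription and RNA handling 8 were lower, with the mRNA-stabilising LRPPRC at −1.97 and the poly(A) polymerase MTPAP at −1.77. Of 7 transcription factors and coactivators known to act on such genes 6 were lower, with MYC at −3.13 and ESRRA at −1.68. The products of the mitochondrial genome ran the other way: 10 of 12 mitochondrially encoded mRNAs were higher and 1 lower, with ATP6 at 1.91 and ND3 at 1.87, and both mitochondrial ribosomal RNAs were higher. These ribosomal RNAs spread widely, with 12S at 684 ± 897 TPM in SA and 32.1 ± 10.3 TPM in CON livers. Ribosomal RNAs not encoded in mitochondria also took a larger share in the SA livers, as given above, although the libraries were poly(A)-selected. The part of this library feature in the higher mitochondrial RNAs was not tested. The lower shares as deposited were 40% of the mitoribosome proteins, 50% of translation factors and 55.6% of synthetases. They were 63.6% of assembly factors, 61.5% of transcription and RNA genes and 85.7% of transcription factors and coactivators. Over all genes 59.1% were lower and 5.21% higher, so most of these lists lay near all genes. Of the mitochondrially encoded mRNAs 83.3% were higher. As for the family, the counts followed the scaling. In the other 3 scalings 3 to 5 translation factors were higher and 4 to 6 lower, 3 synthetases were higher and 2 to 5 lower, and 2 assembly factors were higher and 4 to 7 lower. Of the transcription and RNA genes 1 to 2 were then higher and 4 lower, and of the transcription factors and coactivators none was higher and 1 to 2 were lower. Over all genes 16% to 16.8% were higher and 13.9% to 21.1% lower in these 3 scalings. After quantile normalization 9 mitochondrially encoded mRNAs were higher and 1 lower, and with size factors 11 were higher and none lower. No test of these lists as sets was run. In tail fat and under both brain labels none of these genes passed the threshold for diet.

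For 18 of the 63 genes matched by name in the RefSeq gene table of assembly ARS-UI_Ramb_v3.0, that table lists another gene over the same stretch. Among them are MRPL47 with ACTL6A, MRPL49 with SYVN1, MRPL14 with TMEM63B and MRPS34 with EME2, beside those given above. Of the genes higher in SA livers under all 4 scalings, MRPL41, MRPL52, MRPS25 and MRPS31 overlap another gene, and MRPL40 and MRPL21 do not. Of those lower under all 4 scalings, only MRPL9 does. How reads of such stretches were assigned is not given in the sources used here, so the levels of all genes with an overlap are less certain. MRPL46 and MRPS11 lie next to each other in that table, and in SA against CON livers they changed by −1.53 and −1.05, both lower as deposited. That pair was picked with its values in view.

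Over the 8 group means, the genes outside the family that followed its summed level most closely on log2(TPM + 1) were NDUFA6, a subunit of respiratory complex I, with Pearson's r 0.990, DCAKD with 0.988 and SNRNP25, a component of the minor spliceosome, with 0.987 (n = 8 groups, all from the same libraries). NDUFA6 had a mean of 23.7 TPM in SA livers and 41.5 TPM in CON livers, and 245 TPM in SA and 102 TPM in CON tail fat. Within the family, MRPS30 and MRPS31 followed the sum of the other genes least, at r −0.69 and −0.58. MRPS30 averaged 8.09 ± 6.67 TPM in SA and 9.86 ± 8.82 TPM in CON tail fat, where the family's sum was highest on SA, and 15.1 ± 4.35 TPM in SA and 15.1 ± 1.28 TPM in CON livers.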

How the data were processed

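The deposited table gives TPM per gene and library. Per the submitters' processing notes the authors used fastp, HISAT2 and RSEM. Tool versions, build, annotation and whether reads were assigned by strand were not given in the sources used here. Deposited TPM values keep no depth, so the precision that depth gives is unknown. The table's 8 further columns equalled group means and were not used. The 66 genes and all gene lists were chosen with earlier results of these data known.

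Genes that reached 1 TPM in 4 or more libraries of a comparison were tested with limma 3.58.1 in R 4.3.3 on log2(TPM + 1), with trend and robust settings, two-sided and with Benjamini-Hochberg adjustment over all genes tested (threshold 0.05). Diets were compared within each tissue (8 libraries). Tissues were compared on the 16 CON libraries, and the interaction with an F-test (3 degrees of freedom) on all 32. The test was checked on simulated data. Per the labels, the 4 libraries of a group come from 4 sheep.

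Alternatives were a pseudocount of 0.1, no filter, 3 other scalings (extended to the related lists after their values were seen), plain settings, a joint fit, array weights, a replicate block, the SA libraries in place of the CON ones, and leaving out libraries. The text names a panel of proteins of known role, the 3 genes of lowest p per direction and comparison, the 3 of lowest interaction p, the 3 highest and lowest levels, up to 2 genes of each related list and the 3 genes most like the family. Others are said to have been picked with their values in view.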

Additional observations from a re-analysis of the deposited data

Results flagged for a closer look

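Over 108 groups of 4 libraries looked at, 3 held a library whose gap to its nearest neighbour, divided by the group's range, passed Dixon's critical value, and chance gives this in about 1 in 20 groups. The summed level of the family in the CON libraries of the hypothalamus label had a gap ratio of 0.886: CON 1 stood at 1527 TPM and the other 3 at 1732 to 1758 TPM. MRPL52, a large-subunit protein specific to mitochondria, was at 7.28 TPM in CON 1 of the pituitary label, with 5.67 to 5.84 TPM in the other 3. MRPL40 was at 45.5 TPM in CON 3 liver, with 32.4 to 33.9 TPM in the other 3 CON livers, all below the 70.6 TPM of the lowest SA liver.

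The diet difference varied between tissues by the limma interaction test with Benjamini-Hochberg adjustment in MRPL44 (adjusted p = 0.000189), MRPL46 (0.000273) and MRPL37 (0.000701). In each the change was below 0 in liver and above 0 in tail fat. The shares of mitochondrially encoded TPM that differ between the libraries of both tissues are given with the results, and their part in this difference was not tested.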

How the results depend on the processing

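Over the alternatives run for single genes, 1486 values kept direction and side of the threshold, 40 lost the call, 30 gained it and 42 changed sign. For SA against CON liver the counts were 20 higher and 16 lower after quantile normalization, 20 and 10 without mitochondrial and ribosomal RNA, 18 and 12 with size factors, and 10 higher with array weights. In tail fat the higher count was 3, 2 and 9 under these scalings, 18 in the joint fit, 28 with array weights and 2 without CON 2 and SA 1. Pituitary against hypothalamus label gave 3 higher and 1 lower after quantile normalization, 1 higher without mitochondrial and ribosomal RNA and 1 lower with size factors. Liver against tail fat gave 25 lower after quantile normalization, 6 and 35 without mitochondrial and ribosomal RNA, 20 higher with size factors, 2 and 46 in the SA libraries, and 7 higher without tail fat CON 3 and CON 4, a choice made after seeing the data. Brain labels against liver and tail fat gave 6 and 39 after quantile normalization, 5 and 44 with size factors and 13 lower in the SA libraries. The interaction gave 0 without liver and 46 without pituitary SA 4, tail fat CON 2 and SA 1, a choice made after seeing the data. Counts of called genes that appear only in this paragraph are given without the share of all genes. They cannot be told apart from a shift of all genes and are not read as results about the family. The cause of these shifts was not tested. Summed levels without mitochondrial and ribosomal RNA were 3503 TPM in SA and 3716 in CON for the pituitary label, 3510 and 3495 for the hypothalamus label, 3024 and 1950 in liver, and 5893 and 4553 in tail fat. With size factors they were 1134 in SA and 1178 in CON for the pituitary label, and 1114 and 1150 for the hypothalamus label. Livers then had 2562 in SA and 1744 in CON, and tail fat 5058 in SA and 2627 in CON. Leaving out 1 library gave 4 to 12 higher and 34 to 39 lower in liver, 0 to 2 higher and 0 to 0 lower in tail fat, 0 to 0 for both brain labels, 32 to 45 for the interaction, 9 to 26 and 13 to 21 for liver against tail fat, 26 to 39 and 7 to 11 for brain labels against liver and tail fat, and 0 to 6 higher between brain labels. Signs turned as follows. In liver the 3 scalings gave 0.75, 0.90 and 0.81 for MRPL12, 0.37, 0.51 and 0.44 for MRPL11, 0.58, 0.67 and 0.59 for MRPL2, 0.53, 0.64 and 0.56 for MRPL58, 0.47, 0.64 and 0.56 for MRPS5, 0.93, 1.04 and 0.94 for MRPS30 and 0.91, 1.07 and 0.97 for MRPS34. Array weights gave 0.0036 for MRPL12 and 0.084 for MRPS34, and leaving out single livers −0.22 to 0.23 for MRPS34, −0.18 to 0.16 for MRPS30 and −0.35 to 0.18 for MRPL12. Without single pituitary libraries MRPL52 was at −0.043 to 0.21 and MRPL42 at −0.059 to 0.27, below 0 without SA 1 or SA 2 and, for MRPL42, SA 3. Without single tail fat libraries MRPL3 was at −0.69 to 0.063 and MRPS35 at −0.60 to 0.032, above 0 without CON 2, and MRPL3 was at 0.018 and MRPL47 at 0.031 without CON 2 and SA 1. In the SA libraries liver against tail fat was −0.91 for MRPS28, −1.20 for MRPS18B and −0.96 for MRPS27. With the replicate number as a block, liver gave 6 higher and 36 lower, tail fat and both brain labels 0, the interaction 36, liver against tail fat 10 and 16, and brain labels against liver and tail fat 28 and 7. No pairing was taken from the numbers, since in no comparison did every same-numbered pair correlate above 0.1 (liver −0.18 to 0.16, tail fat −0.34 to 0.25). Depth is unknown for TPM, so low genes such as MRPL27 cannot be given a limit.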

Other observations

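The other genes of mitochondrial translation also differed between tissues on the CON diet, by the limma fit used for the family. In liver against tail fat, 6 of 14 translation factors were higher and none lower, with the elongation factors GFM1 at 1.40 and TUFM at 1.09. Of 13 genes of mitochondrial transcription and RNA handling 8 were higher in liver and 1 lower, with HSD17B10, a dehydrogenase that is also part of mitochondrial RNase P, at 2.60. Of 22 assembly factors 5 were higher, with the GTPase NOA1 at 1.64, and 1 was lower, the ribonuclease YBEY at −2.20. Of 12 mitochondrially encoded mRNAs none was higher in liver and 9 were lower, with ND3 at −2.58 and COX3 at −1.64. Over all genes in this contrast, 23.3% were higher and 20.8% lower. These 7 genes kept their sign in each of the 4 scalings that included them, but the counts did not hold: without mitochondrial and ribosomal RNA 2 translation factors were higher and 6 lower, and 1 assembly factor was higher and 7 lower, whereas transcription and RNA handling kept more higher than lower genes in all 4. The shares of all genes in this contrast under each scaling are given above with the family's counts. The counts under the other scalings are not read as results about these lists.

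In the brain labels against liver and tail fat, 9 of 14 translation factors and 13 of 19 synthetases were higher and none lower, beside 61.8% of all genes. After quantile normalization 2 translation factors were higher and 6 lower, and 1 synthetase was higher and 10 lower, so these directions turned with the scaling. PARS2, the mitochondrial prolyl-tRNA synthetase, differed by 1.04 as deposited and by −0.04 after quantile normalization. LRPPRC at 2.15 and HSD17B10 at −4.42 kept their sign in all 4 scalings. As deposited both mitochondrial ribosomal RNAs were higher in the brain labels. Of the cytosolic ribosomal protein genes 33 of 46 were lower and 1, RPL26L1, higher, and 26 to 44 were lower over the 4 scalings. For the brain labels too, the shares of all genes under each scaling are given above with the family's counts. No list was tested as a set against them.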
